A study of Mus musculus with 6 samples.

Results

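The collagen chains of the mouse genome were followed across the cell types of the mouse aorta, and between a normal and a high-fat diet. Members were all genes whose symbol was Col, a number, the letter a and a second number. This rule uses the symbol alone and gave 44 of the 27998 genes in the count matrices. The series holds droplet libraries of aorta from C57B/6J mice aged 18 weeks in 6 samples of 2 wells each, 3 labelled control (the normal diet) and 3 labelled high-fat diet. Per the labels, cells were freed with a type IA collagenase and DNase solution, red cells were lysed, and 3′ transcript tags with unique molecular identifiers (UMIs) were made with version 2 chemistry. No allele or drug is named for either group, and the duration and composition of the diet are not given in the sources used here. Nothing in the labels says that samples came from separate animals, so the p-values below measure only the spread between these samples.

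Collagens are trimers of alpha chains wound into a triple helix. Of the fibrillar chains (types I, II, III, V, XI, XXIV and XXVII), types I, III and V form the tensile fibrils of the adventitia and media, and types II and XI are known from cartilage. Type IV chains assemble into the network of basement membranes that lies under endothelium and around smooth muscle cells. Type VI chains form beaded filaments, type VIII chains are short network formers of vessel walls, types XV and XVIII are basement membrane proteoglycans, and fibril-associated chains such as types XII, XIV and XVI decorate fibrils. Col1a1 and Col1a2 make type I collagen, Col3a1 makes type III, and chains are hydroxylated, folded with the chaperone Serpinh1 and trimmed before they are crosslinked by lysyl oxidases.

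The 6 type IV genes lie as 3 head-to-head pairs. The promoters of 2 pairs are shown, because the chains of a pair stood together in some cell types below while the pairs parted from each other. RefSeq promoters (250 bases before to 50 bases after the gene start, GRCm38.p6) were found for 35 of the 44 members. In the first pair, Col4a1 (chr8:11312777-11313076, minus strand) and Col4a2 (chr8:11312555-11312854, plus strand), the gene starts were 21 bases apart and the windows shared 78 bases, in capitals here on the strand of each gene.
Col4a1: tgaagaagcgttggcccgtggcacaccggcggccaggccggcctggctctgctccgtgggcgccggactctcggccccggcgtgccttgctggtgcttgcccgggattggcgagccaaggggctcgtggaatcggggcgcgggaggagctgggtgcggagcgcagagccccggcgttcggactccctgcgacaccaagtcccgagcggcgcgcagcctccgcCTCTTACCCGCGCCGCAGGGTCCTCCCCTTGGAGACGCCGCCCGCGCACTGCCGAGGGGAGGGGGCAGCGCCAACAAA
Col4a2: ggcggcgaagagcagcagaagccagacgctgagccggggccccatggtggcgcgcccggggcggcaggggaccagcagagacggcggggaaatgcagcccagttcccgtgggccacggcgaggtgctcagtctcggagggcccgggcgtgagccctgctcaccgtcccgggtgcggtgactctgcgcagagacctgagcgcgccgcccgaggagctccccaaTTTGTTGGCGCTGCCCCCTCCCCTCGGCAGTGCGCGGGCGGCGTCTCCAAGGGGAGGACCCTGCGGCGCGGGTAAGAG

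In the second pair, Col4a5 (chrX:141475169-141475468, plus strand) and Col4a6 (chrX:141474027-141474326, minus strand), the gene starts were 1343 bases apart and the windows shared no base. Capitals mark the motif GGGCGG, read on either strand, which began 30 bases before the start of Col4a5 and 21 bases before that of Col4a6. This motif was in 22 of the 35 members' promoters and in 35.7% of the 32851 promoters of the table.
Col4a5: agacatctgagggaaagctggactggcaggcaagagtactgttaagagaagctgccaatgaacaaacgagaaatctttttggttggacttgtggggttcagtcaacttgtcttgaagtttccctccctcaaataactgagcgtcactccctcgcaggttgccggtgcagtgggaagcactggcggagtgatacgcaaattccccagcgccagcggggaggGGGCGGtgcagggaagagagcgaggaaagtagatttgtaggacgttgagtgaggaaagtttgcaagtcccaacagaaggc
Col4a6: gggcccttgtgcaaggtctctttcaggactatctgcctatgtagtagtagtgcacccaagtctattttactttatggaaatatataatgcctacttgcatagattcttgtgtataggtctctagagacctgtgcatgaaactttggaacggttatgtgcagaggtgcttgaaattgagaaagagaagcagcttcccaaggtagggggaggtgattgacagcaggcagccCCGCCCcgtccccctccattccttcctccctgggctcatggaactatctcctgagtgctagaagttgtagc

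The promoters of Col1a2 (chr6:4505368-4505667, plus strand) and Col3a1 (chr1:45311288-45311587, plus strand) are shown because these were the members with the highest levels in fibroblasts and smooth muscle cells. Capitals mark CCAAT on either strand in Col1a2, with 1 match beginning 109 bases before the gene start, and TATAAA on either strand in Col3a1, beginning 117 bases before it. CCAAT was in 13 of 35 members and 37.4% of all promoters, and TATAAA in 5 of 35 members and 13.6% of all promoters. A match describes the letters of the window and is not a measured binding site.
Col1a2: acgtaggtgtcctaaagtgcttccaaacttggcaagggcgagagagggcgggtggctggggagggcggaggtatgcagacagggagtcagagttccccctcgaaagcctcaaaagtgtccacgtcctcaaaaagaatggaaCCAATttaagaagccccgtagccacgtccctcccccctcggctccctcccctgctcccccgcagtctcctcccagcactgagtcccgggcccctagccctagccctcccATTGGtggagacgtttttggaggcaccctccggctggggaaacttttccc
Col3a1: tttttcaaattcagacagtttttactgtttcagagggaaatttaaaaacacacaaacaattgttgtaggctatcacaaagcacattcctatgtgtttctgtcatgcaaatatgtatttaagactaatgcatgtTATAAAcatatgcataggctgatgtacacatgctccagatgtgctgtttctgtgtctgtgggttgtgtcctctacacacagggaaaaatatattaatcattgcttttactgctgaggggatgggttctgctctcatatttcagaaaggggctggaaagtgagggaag

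The matrices held 62838 cells, from 6623 to 18138 per sample, with 41388034 to 83886418 UMIs per sample and a median of 3856 to 5955 UMIs per cell. After filters on genes, mitochondrial share and doublets, 58034 cells remained, of which 36841 passed a marker gate. A gate asked for at least 3 of 6 marker genes of a type and 2 more than of any other type, and no collagen gene was a marker. Cells that passed are called below by the type they resembled. Control 1 stood apart, with 1548 of its 6429 cells gated. Of the 60528 barcodes, 2051 occurred in 2 or more samples.

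All 44 members had UMIs, and together they took 1703640 of 300227879 UMIs (0.567%). Col26a1, with 59 UMIs, and Col6a4, with 51, were the only members under 100. Cells that passed a gate held 64.3% of the members' UMIs. Within the gated cells, fibroblasts held 71.34% of them and smooth muscle cells 23.54%, against 1.14% in endothelial cells and 0.27% in pericytes.

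Collagen messages were also read in cells not known for making them. Levels are given as counts per 1000000 UMIs of the class in each sample (CPM), counted in molecules, so that no division by transcript length applies, and beside each is the level in blood cells (B, T, macrophage and neutrophil gates) of the same wells. The 44 chains summed to 611 CPM ± 124 (SD, n = 4 samples) in B cells, 526 CPM (n = 5) in T cells and 944 CPM ± 633 (SD, n = 6) in macrophages. Free RNA in the droplets gives such counts in cells that do not express a gene. Col3a1, the highest chain in each, was at 256 CPM in macrophages, 185 CPM in B cells and 143 CPM in T cells. In macrophages Col1a2 was at 196 CPM, Col1a1 at 96.2, Col14a1 at 54.2, Col6a1 at 44.7, Col6a2 at 42.6, Col18a1 at 32.96, Col5a2 at 32.0, Col4a1 at 29.4 and Col4a2 at 27.4 CPM, with Col15a1 (23.9 CPM) and Col6a3 (22.6 CPM) next and Col8a1 at 3.71 CPM. Macrophages are part of the blood cell sums, so their values cannot be set against that background, and they are used here as a second background.

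With the gate above, fibroblasts carried the highest summed level of the classes measured in 3 or more samples, 11289 CPM ± 2711 (SD, n = 6). Their level was 8352 CPM in the lowest and 14194 CPM in the highest sample, beside 918 CPM in blood cells. Smooth muscle cells followed with 4467 CPM ± 816 (SD, n = 6) and a range of 3498 to 5541 CPM, and no smooth muscle sample reached the lowest fibroblast sample. Pericytes (4315 CPM ± 506, SD, n = 5), Schwann cells (4042 CPM ± 673, SD, n = 4) and mesothelial cells (3837 CPM ± 603, SD, n = 4) lay within the range of smooth muscle cells or close to it. Endothelial cells reached 1718 CPM ± 391 (SD, n = 6), beside 902 CPM in blood cells of the same wells.

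**Figure D1:**
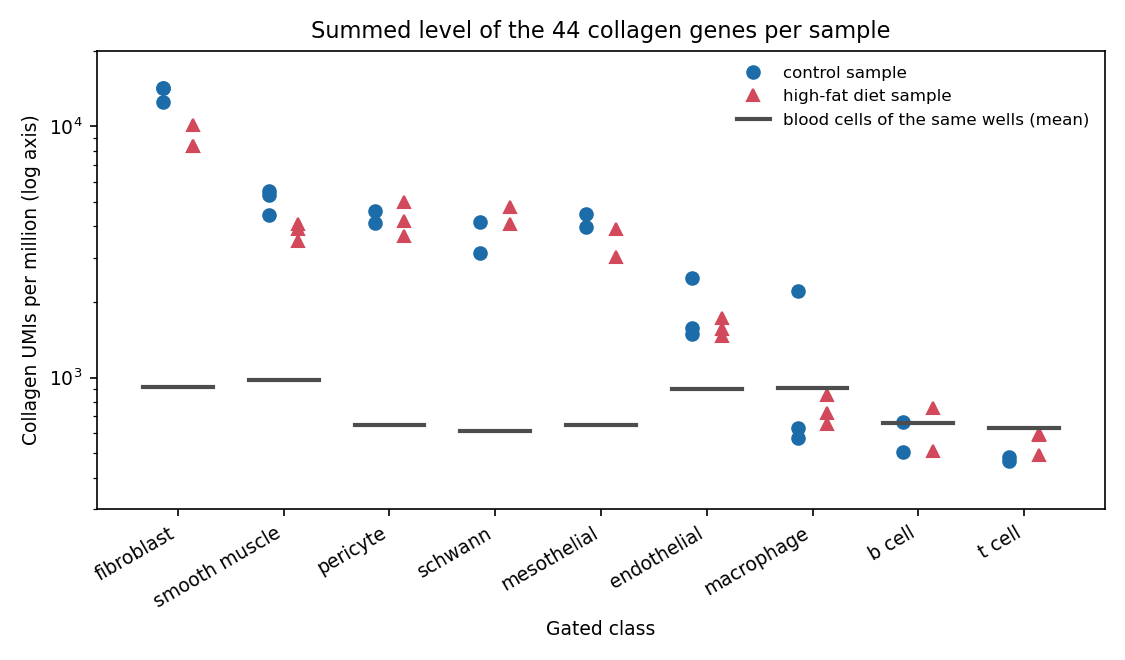
Summed CPM of the 44 collagen chains for each gated cell type (log axis), with a circle for each control sample and a triangle for each high-fat diet sample, and a grey bar for the mean of blood cells in the same wells. Fibroblasts lie between 8352 and 14194 CPM, smooth muscle cells between 3498 and 5541 CPM, and macrophages around the grey bar except for 1 control sample at 2221 CPM.

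The share of cells with a collagen UMI followed the same order from fibroblasts to smooth muscle, endothelial cells and macrophages when each cell was thinned to 1000 UMIs. At that depth 98.91% of fibroblasts, 96.4% of smooth muscle cells, 92.43% of pericytes and 75.84% of endothelial cells held at least 1 collagen UMI, against 54.33% of macrophages and 46.92% of B cells. These are means over samples, and 1 B cell was left out for having fewer than 1000 UMIs. A Col3a1 UMI was found in 80.21% of thinned fibroblasts (96.44% before thinning) and in 16.47% of thinned B cells.

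The makeup of the collagen transcripts also differed between cell types. In fibroblasts 75.64% ± 3.98 (SD, n = 6) of collagen UMIs came from fibrillar chains and 4.68% from type IV chains. In smooth muscle cells the fibrillar share was 54.4%, type IV made up 18.47%, and the multiplexins Col15a1 and Col18a1 made up 12.76%. In endothelial cells type IV chains were the leading family with 49.84% ± 9.78 (SD, n = 6), and much of the 30.82% that was fibrillar lay at the blood cell level.

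In fibroblasts the fibrillar chains Col3a1, Col1a2 and Col1a1 led. Col3a1, on chromosome 1 (45311538 to 45349706, mm10, plus strand), stood at 3524, 4333 and 4374 CPM in the control samples and at 2281, 2078 and 2499 CPM in the high-fat diet samples, 12.77 times the level in blood cells. Col1a2 stood at 3495, 3747 and 3692 CPM in controls and at 1973, 2233 and 2820 CPM on the high-fat diet. Col1a1 stood at 2176, 2744 and 2690 CPM in controls and at 1359, 1306 and 1553 CPM on the high-fat diet. All 3 chains were lower in each high-fat diet sample than in any control, a difference taken up with its test below.

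The next chains in fibroblasts were Col14a1 (562 CPM), which binds to fibrils, the beaded filament chains Col6a1 (481 CPM), Col6a2 (403 CPM) and Col6a3 (210 CPM), the type V chains Col5a2 (234 CPM) and Col5a1 (172 CPM), and Col4a1 (218 CPM). Col15a1 reached 171 CPM, Col4a2 118 CPM and Col8a1 83.4 CPM. Col18a1 reached 48.9 CPM, only 1.55 times its blood cell level. Some chains varied widely between samples of 1 group. Col8a1 was at 87.5, 76.8 and 23.1 CPM in controls and 76.7, 49.0 and 187.5 CPM on the high-fat diet, and Col6a5, named after its values were seen, was at 125.7 CPM in control 3 against 1.65 to 6.33 CPM elsewhere.

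Smooth muscle cells combined fibrillar with basement membrane chains. Col1a2 stood at 1317, 1243 and 732 CPM in controls and 843, 833 and 661 CPM on the high-fat diet. Col3a1 stood at 1186, 981 and 897 CPM in controls and 693, 725 and 683 CPM on the high-fat diet, the groups overlapping for Col1a2 but not for Col3a1. Col18a1, whose C-terminal fragment is endostatin, was the third highest chain: 353, 591 and 491 CPM in controls and 420, 415 and 411 CPM on the high-fat diet, 11.23 times the level in blood cells. After thinning to 1000 UMIs it was found in 33.88% of smooth muscle cells, 4.614% of fibroblasts and 2.354% of B cells.

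Below these in smooth muscle came Col1a1 (443 CPM), Col4a1 (323 CPM), Col4a2 (246 CPM), Col6a2 (169 CPM), Col6a1 (165 CPM), Col4a5 (129 CPM), Col14a1 (121 CPM) and Col6a3 (121 CPM). Col15a1 was at 118 CPM and Col8a1 at 14.4 CPM. Of the other type IV chains, Col4a6 was at 94.6 CPM, Col4a4 at 11.3 CPM and Col4a3 at 4.77 CPM.

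In endothelial cells Col4a1 and Col4a2, which form the common type IV trimer, stood far above background. Col4a1 was at 391, 332 and 535 CPM in controls and 502, 422 and 461 CPM on the high-fat diet, 16.39 times the blood cell level, and was found in 29.99% of thinned endothelial cells against 1.975% of B cells. Col4a2 was at 321, 318 and 390 CPM in controls and 385, 290 and 364 CPM on the high-fat diet, 12.53 times the blood cell level. The groups overlapped for both. Col18a1 (79.7 CPM, beside 28.5 CPM in blood cells) and Col8a1 (28.7 CPM, 8.189 times blood cells) were also above background.

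The 3 highest fibrillar chains of endothelial cells were not. Col3a1 (225 CPM) stood at 0.9121 times, Col1a2 (178 CPM) at 0.9601 times and Col1a1 (72.8 CPM) at 0.7678 times the level in blood cells of the same wells. Expression of these 3 chains by endothelial cells was not detectable above the blood cell level. The remaining chains with the highest endothelial levels were Col5a2 (46.5 CPM), Col15a1 (46.5 CPM), Col6a1 (42.7 CPM) and Col6a2 (37.4 CPM), and Col6a3 was at 22.1 CPM.

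Most classes with fewer cells were also led by Col3a1. Pericytes, the mural cells of small vessels, were led by Col3a1 (1015 CPM), Col4a1 (575 CPM, 23.33 times blood cells) and Col4a2 (466 CPM). Schwann cells were led by Col3a1 (826 CPM), Col1a2 (551 CPM) and Col1a1 (413 CPM), and mesothelial cells by Col3a1 (1453 CPM), Col1a2 (815 CPM) and Col1a1 (451 CPM). Lymphatic endothelial cells had Col4a1 at 226 CPM and Col18a1 at 202 CPM. In cardiomyocytes, skeletal muscle cells and neutrophils the leading chains were Col3a1 (274, 310 and 221 CPM), Col1a2 (233, 293 and 151 CPM) and Col1a1 (157, 134 and 70.8 CPM), at 1.029 to 2.363 times the blood cell level. In B and T cells Col1a2 was at 113 and 106 CPM and Col1a1 at 67.0 and 78.0 CPM.

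Chondrocytes, with 59 cells of which 55 came from control 2, were measured with the main gate in that sample alone. There the cartilage chain Col2a1 was at 4678 CPM beside 11.96 CPM in blood cells, Col11a1 at 1733 CPM and Col9a2 at 1432 CPM. The summed level there was 17017 CPM. A gate that sets marker counts against the background of each well (well background gate) was chosen after the data were seen. It gave 285 chondrocytes and levels in 3 samples. With it Col2a1 was at 1898 and 3194 CPM in controls 1 and 2 and at 1569 CPM in high-fat diet 2. Col11a1 was at 1541, 1182 and 947 CPM in these samples.

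Differences between cell types were tested with edgeR's quasi-likelihood test on the summed counts with the sample as a block, and a gene was called at a Benjamini-Hochberg adjusted p under 0.05. Of 32 members tested between fibroblasts and smooth muscle cells, 21 were higher in fibroblasts and 6 higher in smooth muscle, where 29.3% and 27.7% of all 13092 genes were called in those directions (57% in all). The median over members was 1.48 on the log2 scale, against 0.01 over all genes. Of the 21 called higher in fibroblasts, 6 were fibrillar, 5 beaded filament and 3 fibril-associated chains, and 2 each were short and transmembrane chains. Type IV chains were called in both directions: Col4a3 (18.2 against 4.77 CPM, log2 1.74) and Col4a4 (46.0 against 11.3 CPM, 1.95) were higher in fibroblasts, while Col4a1, Col4a2, Col4a5 and Col4a6 were lower, as were Col18a1 and Col19a1.

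The largest difference toward fibroblasts among members at 20 CPM or more was Col5a3, a minor fibrillar chain, at 41.5 against 2.64 CPM (log2 4.05, SE 0.20, adjusted p = 1.177e-06). Col6a5 (log2 3.10), Col23a1 (2.74), Col8a1 (2.56), Col12a1 (2.31) and Col14a1 (2.25) followed. Col6a5 reached 20 CPM only through control 3, and without that library its log2 difference was 2.38. Col1a1 differed by a log2 of 2.10, Col3a1 by 1.81 and Col1a2 by 1.64. Toward smooth muscle the largest was Col18a1, at 447 against 48.9 CPM (log2 -3.29, SE 0.22, adjusted p = 8.157e-06), then Col4a6 (-1.76), Col4a2 (-1.08), Col4a5 (-0.86) and Col4a1 (-0.63). With a stricter gate 13 members in place of 21 were called toward fibroblasts, and Col8a1 (adjusted p = 0.412) and Col12a1 (adjusted p = 0.103) were not among them.

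Most genes that process collagen were also higher in fibroblasts. Of 25 tested from the list of procollagen processing and crosslinking genes, 18 were higher in fibroblasts and 2 lower (29.3% and 27.7% of all genes). Pcolce, an enhancer of procollagen C-proteinase, was higher by a log2 of 3.16, and the chaperone Serpinh1 by 1.01. Of 8 collagen receptors, 3 were higher in fibroblasts and 4 lower, beside the same shares of all genes, and on so few genes these counts are a description only. The integrin subunit Itga11 was higher by a log2 of 3.24 and the discoidin receptor Ddr2 by 0.96, while Itga1 was at -2.47 and Itgb1 at -1.89.

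Against endothelial cells, smooth muscle cells were higher for 17 and lower for 5 of 24 members (28.4% and 27.1% of all genes, 55.6% in all). The type IV chains split here: Col4a6 (log2 4.62, SE 0.28) and Col4a5 (3.79, SE 0.14) had the 2 largest differences toward smooth muscle, while Col4a1 (-0.32) and Col4a2 (-0.38) were higher in endothelium. Col1a1 (2.85), Col6a3 (2.84), Col18a1 (2.74) and Col1a2 (2.68) were also higher in smooth muscle. The differences toward endothelium were small and depended on single libraries. The 5 calls became 2 without high-fat diet 1, 3 without high-fat diet 2 and 2 without high-fat diet 3, and 0 with a stricter gate, where Col4a1 was at 0.126. Col4a2 was not called without high-fat diet 1 (adjusted p = 0.0526) or high-fat diet 3 (0.0705). Col8a1 (-0.87, adjusted p = 0.0436) lost its call when any library except control 3 was left out.

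Fibroblasts were higher than endothelial cells for 20 and lower for 4 of 26 members (29.1% and 25.9% of all genes, 55% in all). Col1a1 differed by a log2 of 5.04 (SE 0.35), Col6a6 by 4.87, Col14a1 by 4.44, Col1a2 by 4.38, Col3a1 by 4.11 and Col6a1 by 4.02. Lower in fibroblasts at 20 CPM or more were Col4a2 (-1.45, SE 0.09), Col4a1 (-0.94) and Col18a1 (-0.61). Col18a1 thus ranked, by mean CPM, highest in smooth muscle cells, then endothelial cells and then fibroblasts, and both neighbouring differences passed the test, although with a stricter gate Col18a1 stood at 0.047 in fibroblasts against endothelial cells.

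The contrast of each class with macrophages, used here as a second background, was added after the data were seen. Its filter on low counts took the sums of both classes, so a member could enter through the class where it was high. The counts of members higher than macrophages were thus partly fixed by the filter. Fibroblasts were higher for 27 and lower for 0 of 28 members (33.6% and 30.8% of all genes, 64.4% in all), and smooth muscle cells for 22 and 1 of 25 (34.2% and 31.3%, 65.5% in all). Mesothelial cells were higher for 17 and lower for 0 of 20 (24.8% and 25.6%, 50.4% in all), and pericytes for 11 and 0 of 13 (19.4% and 24.9%, 44.3% in all). Endothelial cells were higher for 6 and lower for 6 of 16 (29.9% and 26.9%, 56.7% in all). Those at 20 CPM or more that were higher included Col4a1 (log2 3.88, SE 0.16), Col4a2 (3.82), Col8a1 (2.73), Col18a1 (1.33) and the fibrillar chain Col5a2. Lower than in macrophages were, among others, Col1a1 (-0.49) and Col3a1 (-0.38).

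Schwann cells, the glia of peripheral nerves, were higher than macrophages for 20 and lower for 0 of 20 members (16.9% and 22.3% of all genes, 39.2% in all). The same limit of the filter holds for this count, and Schwann cells were contrasted with no other class. Col28a1, a chain known from peripheral nerve, had 28 UMIs in Schwann cells of 4 samples, with 26.7 and 104.1 CPM for controls 2 and 3, then 53.9 and 59.0 CPM for high-fat diet 1 and 3. Macrophages had 0 UMIs of it, so it passed the filter through the Schwann sums alone. Against 3 counts over the macrophage sums it was at least 319-fold higher. All 4 samples were thus above macrophages. Col20a1 (log2 6.08), Col27a1 (5.35), Col9a3 (4.97), Col5a3 (4.77) and Col16a1 (4.66) followed.

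Pericytes and smooth muscle cells, both mural cells, were compared in 5 samples with 210 pericytes in all. Of 26 members, 7 were higher and 9 lower in pericytes (7.73% and 15.7% of all genes, 23.4% in all). Col5a3 was at 127 CPM in pericytes against 2.41 CPM (log2 5.43, SE 0.35), and Col13a1, a transmembrane collagen, at 38.0 against 1.15 CPM (4.80, SE 0.52). Col13a1 had only 28 UMIs in pericytes, with 0 CPM in high-fat diet 1 and 21.24 to 71.61 CPM in the other samples. With the well background gate its pericyte mean was 21.16 CPM, from 0 CPM in high-fat diet 1 to 56.88 CPM in high-fat diet 3. Col4a6 (-4.53), Col4a5 (-3.85), Col18a1 (-3.07), Col15a1 (-2.68), Col5a1 (-1.51) and Col1a2 (-1.31) were lower. Col19a1 had 0 UMIs in pericytes and 491 in smooth muscle cells of the same samples, at least 1.87-fold lower when 3 counts are taken over the pericyte sums. In pericytes, therefore, Col4a1 and Col4a2 were high while the head-to-head pair of Col4a5 and Col4a6 was low.

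The smaller differences toward pericytes rested on single libraries. The 7 calls became 4 without control 3 and 3 without high-fat diet 3. Col6a1 was higher by a log2 of 0.91, Col6a3 by 0.65, Col6a2 by 0.57 and Col12a1 by 1.24. Col6a2 was not called without control 3 (adjusted p = 0.181) or high-fat diet 3 (0.175), Col6a3 not without high-fat diet 3 (0.298), and Col12a1 not without control 2 (0.0714), control 3 (0.113) or high-fat diet 3 (0.299).

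Mesothelial cells, which line the outer surface, were lower than fibroblasts for 19 and higher for 2 of 27 members in 4 samples (15.7% of all genes in either direction, 31.4% in all). Col23a1 (log2 -4.91), Col27a1 (-4.68), Col12a1 (-4.29), Col15a1 (-4.00), Col8a1 (-3.62) and Col5a3 (-3.04) were the largest. Col18a1 was higher in mesothelial cells, at 82.9 against 42.5 CPM (0.95, SE 0.18, adjusted p = 3.965e-04). Col4a4 (0.47) was called higher, and lost the call without control 2 (adjusted p = 0.342), control 3 (0.0626) or high-fat diet 3 (0.125).

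Within the endothelium, a second gate of arterial markers (194 cells) and of capillary markers (1272 cells) parted the type IV chains. In the 4 samples with enough arterial cells, Col4a3 had 60.6 CPM and 27.6 CPM for controls 2 and 3, then 57.3 CPM and 47.9 CPM for high-fat diet 1 and 3. In capillary cells of the same samples it was at 1.42, 0, 1.51 and 1.37 CPM. Every arterial sample was above every capillary sample, on 46 and 4 UMIs, and the log2 difference was 5.30 (SE 0.51, adjusted p = 1.842e-07, edgeR). The filter on low counts took the sums of both gates, so Col4a3 could enter the test through the arterial cells, where it was high.

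Col4a4, its partner in the trimer of the glomerular basement membrane, was at 141, 62.1, 49.1 and 113 CPM in arterial cells and at 2.84, 2.02, 4.53 and 3.43 CPM in capillary cells (log2 4.82, SE 0.35). On chromosome 1 (mm10) Col4a4 lies from 82448423 to 82586849 on the minus strand and Col4a3 from 82586921 to 82722059 on the plus strand, so these too are head to head. Col4a1 and Col4a2 went the other way. Col4a2 was at 60.6, 124, 81.9 and 59.1 CPM in arterial and 579, 538, 503 and 488 CPM in capillary cells (-2.78, SE 0.20), and Col4a1 averaged 171 against 627 CPM (-1.93, SE 0.17). The groups did not overlap for any of the 4 chains. The share of all genes without overlap between these 2 gates was not counted, so this is a description only.

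In all, 6 members were higher and 3 lower in arterial cells of 16 tested (13.3% and 11.9% of all genes, 25.1% in all). These counts were partly fixed by the same filter. Col5a2, a fibrillar chain, was at 106 against 16.6 CPM (log2 2.67, SE 0.27), Col5a1 at 32.6 against 8.93 CPM (1.90) and Col8a1 at 63.9 against 21.8 CPM (1.5). Col15a1 was lower in arterial cells (-2.73, SE 0.37). Col18a1 (1.03) was called but not without control 2 (adjusted p = 0.108) or control 3 (0.155). Arterial cells carried Col3a1, Col1a2 and Col1a1 at 1.061, 1.258 and 0.8684 times the level of blood cells. Of 17 processing genes 6 were higher and 2 lower in arterial cells, among them the crosslinking enzyme Lox (3.63) and the prolyl 3-hydroxylase P3h3 (3.41), both higher.

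Smooth muscle cells split by second gates into those with the markers Sost, Npnt and Itga8 (7545 cells) and those with Sncg, Rgs4 and Pln (425 cells). The Sncg cells were lower for 12 and higher for 6 of 21 members in 6 samples (9.97% and 9.32% of all genes, 19.3% in all). Of the fibrillar chains 5 were lower: Col1a2 (375 against 992 CPM, log2 -1.40), Col5a1 (-1.201), Col5a2 (-1.10), Col1a1 (-1.07) and Col3a1 (-1.01). Another, Col27a1, was called higher (0.62). Col15a1 was lowest of all (-2.03, SE 0.19). Higher were Col8a1 (2.05, SE 0.24), Col19a1 (1.59), Col4a2 (0.44) and Col4a1 (0.34). Type IV chains were called in both directions, these 2 higher and 2 others lower in Sncg cells. Type IV made up 30.36% of collagen UMIs in Sncg cells and 18.16% in Sost cells. Of 22 processing genes 16 were lower and 1 higher in Sncg cells. Without high-fat diet 3 only 3 of the 6 higher calls were made, and Col4a1 was not called (adjusted p = 0.0673). The call of Col27a1 was lost when any library except control 1 was left out. Col3a1 was not called with a looser gate (adjusted p = 0.0503) or the well background gate (0.0719).

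Fibroblasts were divided by second gates and set against those with Pi16, Cd248 and Sema3c (6616 cells), markers of adventitial progenitor-like fibroblasts. Cells with Thbs4, Cilp and Angptl1 (614 cells) could be compared in 3 samples. Of 27 members 12 were higher and 3 lower in them (3.39% and 3.8% of all genes, 7.19% in all). The short chains led: Col8a1 was at 245 CPM in control 2, 130 in high-fat diet 2 and 703 in high-fat diet 3, against 56.0, 42.1 and 82.3 CPM in Pi16 cells of those samples (log2 2.33, SE 0.32), and Col8a2 averaged 33.4 against 7.17 CPM (2.30, SE 0.31). All 3 Thbs4 values for Col8a1 lay above all 3 Pi16 values, and the share of all genes that did so was not counted.

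Col27a1 (log2 1.32), Col15a1 (1.22), Col6a3 (1.10) and Col4a2 (1.06) were higher too, and Col23a1 (-1.52) and Col4a4 (-1.06) lower. The counts leaned on control 2, the only control sample in this contrast. Without it 3 members were called higher and 0 lower by edgeR, and Col8a1 (adjusted p = 0.0604), Col8a2 (0.0635), Col27a1 (0.233), Col23a1 (0.233) and Col4a4 (0.2) were not among them. Col15a1 was not called without high-fat diet 2 (adjusted p = 0.235). With a looser gate and with the well background gate edgeR did not call Col8a1 (adjusted p = 0.0926 and 0.112) or Col15a1 (0.354 and 0.136). DESeq2 did not call Col23a1 (adjusted p = 0.0874) or Col4a4 (0.115).

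Fibroblasts with Mmp3, Meox1 and Ccl19 (946 cells) were higher than Pi16 cells for 10 and lower for 2 of 25 members (5.92% and 6.6% of all genes, 12.5% in all). Those higher included Col27a1 (log2 1.51, SE 0.16), Col15a1 (1.198, SE 0.11) and the type IV chains Col4a6 (1.12), Col4a3 (1.07) and Col4a4 (0.93), and Col12a1 (-1.56) and Col14a1 (-0.87) were lower. Without control 2 there were 6 higher calls. Col23a1 (0.79) was called, but not when control 2, control 3 or the second or the third of the high-fat diet samples was left out (adjusted p from 0.0625 to 0.323).

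Fibroblasts with Ccl11 and Penk (951 cells) were higher for 7 and lower for 5 of 26 members (6.03% and 6.81% of all genes, 12.8% in all). Higher were Col6a5 (log2 1.72, SE 0.20), Col27a1 (1.26), Col5a3 (1.25), Col4a2 (1.13) and Col6a6 (1.12). Col14a1 was lower, at 338 against 737 CPM (-1.23, SE 0.08), as it was in the Mmp3 cells. The higher calls fell to 4 without control 3, and the lower calls to 3 without control 1 and 2 without control 2 or control 3. Col15a1 (1.39), Col12a1 (-1.19), Col8a1 (-1.09) and Col4a4 (-0.52) were called with all samples but each lost its call without 2 or more single libraries, for Col15a1 without any library except high-fat diet 1.

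The proportion of the 2 chains of a trimer was compared between cell types as a ratio of UMIs within each sample. Col1a1 to Col1a2, which combine in type I collagen with more of the first chain, had a geometric mean ratio of 0.648 in fibroblasts (0.551 to 0.732) and 0.472 in smooth muscle cells (0.421 to 0.557). Col4a1 to Col4a2 was 1.81 in fibroblasts, 1.33 in smooth muscle cells and 1.27 in endothelial cells. Col6a1 to Col6a2 was 1.19 in fibroblasts and 0.976 in smooth muscle cells. All 3 ratios were higher in fibroblasts than in smooth muscle cells in 6 of 6 samples, and the ratio of Col5a1 to Col5a2 in 5 of 6 (exact sign-flip p = 0.0625, adjusted 0.132). With 6 samples an exact two-sided sign-flip test cannot give a p below 0.03125, which each of the first 3 gave, and adjusted over the 19 comparisons made it was 0.0742, so none passed. UMIs come from the 3′ end, and how well each chain's end is captured is not known, so a ratio can be compared between cell types but is not a ratio of proteins.

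Between diets, the summed collagen level of fibroblasts was 12512, 14194 and 14175 CPM in controls and 8372, 8352 and 10130 CPM on the high-fat diet. That of smooth muscle cells was 5347, 5541 and 4422 CPM in controls and 4093, 3901 and 3498 CPM on the high-fat diet. The groups overlapped in neither class. Endothelial cells had 1854 ± 556 CPM (SD, n = 3) in controls and 1582 ± 130 CPM (SD, n = 3) on the high-fat diet, and macrophages 1143 ± 934 and 744 ± 100 CPM (SD, n = 3 each).

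Gene by gene, no member passed the edgeR test between diets in any class. Of 33 members tested in fibroblasts, 0 were called (0.0305% of all 13097 genes, which is 4 genes). Their log2 differences were negative in 26 of 33, with a median of -0.37 against 0.00 over all genes tested. At an unadjusted p under 0.05, 11 members were lower and 0 higher, where 5.6% of all genes were lower (10.9% in either direction), and in 11 members every high-fat diet sample was below every control, which held for 6.8% of all genes. DESeq2, run as an alternative, called 7 members lower, where it called 0.642% of all genes lower.

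Col1a1 averaged 2536 ± 313 CPM (SD, n = 3) in controls and 1406 ± 130 CPM (SD, n = 3) on the high-fat diet, a log2 difference of -0.91 (SE 0.20) with an adjusted p of 0.207 in edgeR and 5.578e-04 in DESeq2. Col3a1 averaged 4077 ± 479 and 2286 ± 211 CPM (-0.89, SE 0.21), with adjusted p-values of 0.233 and 6.049e-04. Col1a2 averaged 3645 ± 132 and 2342 ± 434 CPM (-0.69, SE 0.20), with 0.321 and 0.0133. These 3 chains, which were 72.16% of the collagen UMIs of fibroblasts, did not overlap between diets, and their calls depended on the tool. Without control 1, the sample with few gated cells, edgeR gave Col1a1 -1.06 (adjusted p = 0.0776), Col3a1 -1.04 (0.0833) and Col1a2 -0.78 (0.130).

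Col4a5, a type IV chain, stood at 117, 100 and 98 CPM in controls and 59.8, 61.3 and 33.6 CPM on the high-fat diet (log2 -1.06, SE 0.23, adjusted p = 0.194 in edgeR and 0.00294 in DESeq2), with no overlap. The smallest edgeR p-values in fibroblasts were those of cartilage chains at low levels: Col11a2 (2.76 and 0.537 CPM, adjusted p = 0.160), Col2a1 (9.44 and 0.436 CPM, 0.172) and Col9a3 (2.81 and 0.389 CPM, 0.185). The 6 chondrocyte marker genes, also present in fibroblast sums, totalled 55.5, 63.8 and 8.96 CPM in controls and 8.43, 32.3 and 3.65 CPM on the high-fat diet. Most of that sum was Chad, at 38.8, 46.0 and 4.18 CPM in controls and 3.97, 27.1 and 2.13 CPM on the high-fat diet, and Ucma, at 9.78, 12.1 and 2.99 CPM in controls and 2.81, 2.66 and 0 CPM on the high-fat diet, while Matn1 was at 0 in 5 of 6 samples. The sum was thus lowest in high-fat diet 3 and highest in controls 1 and 2, and the part of chondrocyte RNA in the values of these 3 chains was not tested. For the type IV chains Col4a1 (216 ± 89.6 and 220 ± 42.7 CPM, log2 0.01, SE 0.31) and Col4a2 (127 ± 33.8 and 110 ± 17.4 CPM, -0.23, SE 0.20; SD, n = 3 each) the diets overlapped, and whether their difference departed from that of Col4a5 was not tested.

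**Figure D2:**
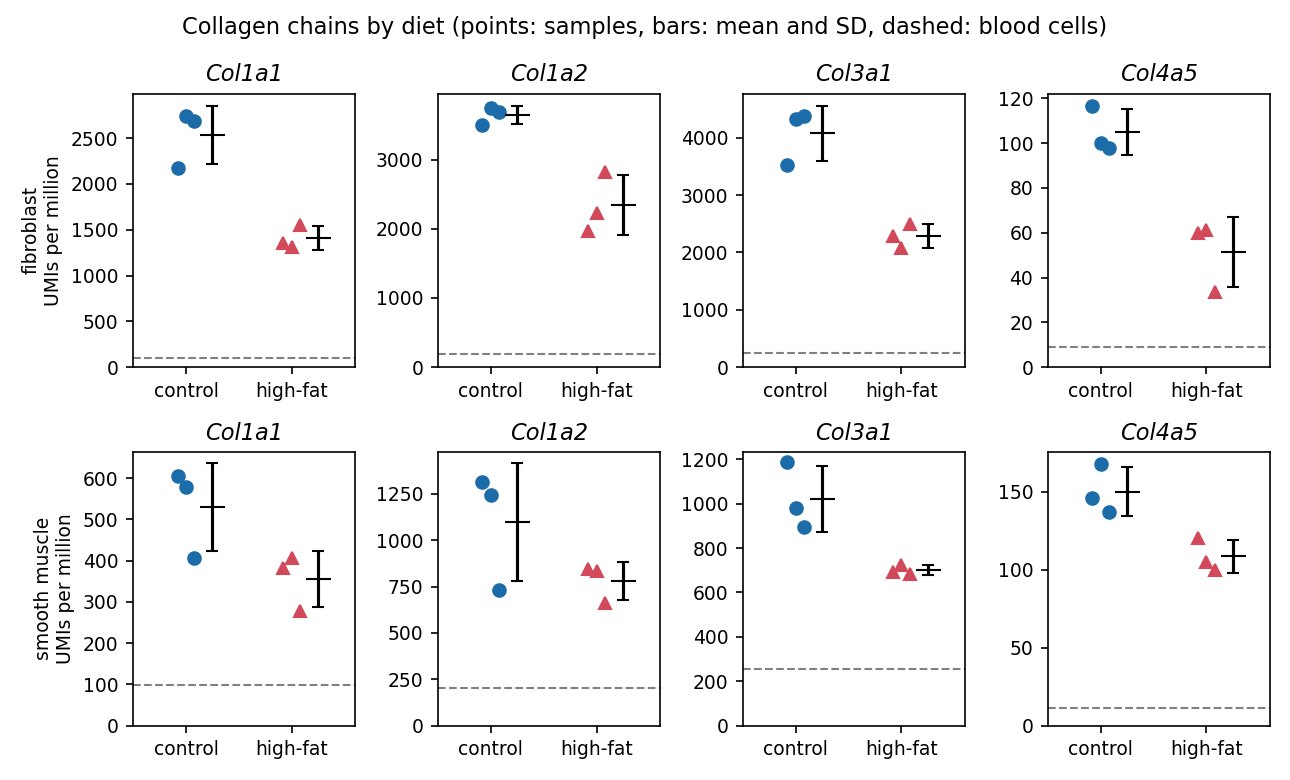
CPM of Col1a1, Col1a2, Col3a1 and Col4a5 in each control and high-fat diet sample, in fibroblasts (top) and smooth muscle cells (bottom), with mean and SD and a dashed line for blood cells of the same wells. In fibroblasts no high-fat diet point reaches a control point for any of the 4 genes, and in smooth muscle cells the points overlap for Col1a2.

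In smooth muscle cells 31 members were tested and 0 called by edgeR (0.00769% of all 13005 genes). The difference was negative in 30 of 31, with a median of -0.48 against -0.01 over all genes. At an unadjusted p under 0.05, 8 were lower and 0 higher (4.59% of all genes lower, 8.57% in either direction), and 7 did not overlap with all high-fat diet samples below (7.97% of all genes). Col3a1 averaged 1021 ± 149 and 700 ± 21.9 CPM (SD, n = 3 each), a log2 of -0.55 (SE 0.14, adjusted p = 0.427 in edgeR and 0.00876 in DESeq2), and without control 1 it was -0.495 (adjusted p = 0.211 in edgeR). DESeq2 called Col3a1 and Col2a1, 2 members, where 0.18% of all genes were called lower.

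Of the other smooth muscle chains with the smallest p-values, Col6a6 averaged 8.73 and 4.82 CPM (-0.86, adjusted p = 0.366), Col4a5 150 and 109 CPM (-0.48, adjusted p = 0.511) and Col1a1 530 and 356 CPM (-0.58, adjusted p = 0.520). None of these 3 overlapped between diets. Col2a1 averaged 9.33 and 0.466 CPM (adjusted p = 0.494), beside a chondrocyte marker sum of 73.0, 48.3 and 10.9 CPM in controls and 14.9, 10.1 and 9.31 CPM on the high-fat diet in the same cells; its part was not tested.

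Whether the diet difference itself differed between smooth muscle cells and fibroblasts was tested as an interaction over 37 members. None passed (0% of 13925 genes), and 1 had an unadjusted p under 0.05, as did 3.13% of all genes, so the members' count was near the background. The 1 member was Col4a5, whose log2 difference was higher in smooth muscle by 0.63 (SE 0.21, adjusted p = 1, edgeR).

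Col1a1 was also lower within the second gates of fibroblasts and smooth muscle cells, which hold part of the same cells of the same samples. Fibroblasts with Pi16 had Col1a1 at 1878, 2492 and 2573 CPM in controls and 1293, 1299 and 1288 CPM on the high-fat diet (log2 -0.91, adjusted p = 0.262). Of 27 members in Pi16 cells, 0 were called by edgeR (0.0347% of all genes), 25 were negative and 9 were lower at an unadjusted p under 0.05 (4.57% of all genes lower). Col1a1 was at -0.78 in Ccl11 cells, -0.59 in Sost smooth muscle cells and -0.85 in Sncg smooth muscle cells. In all 4 of these gates the high-fat diet samples lay below the controls for Col1a1. That held for 5.45% of all genes in Pi16, 3.41% in Ccl11, 7.86% in Sost and 5.12% in Sncg cells. In Mmp3 cells Col1a1 was at 2533, 3239 and 3275 CPM in controls and 1426, 1219 and 2572 CPM on the high-fat diet, which overlapped. Other fibrillar chains did not all follow Col1a1. Col1a2 overlapped between diets in Ccl11, Mmp3 and Sncg cells, and Col3a1 in Sncg cells. Col5a3 had a positive log2 difference in Mmp3 (1.14) and Ccl11 cells (0.66), with overlap in both. By edgeR 0 members were called in Mmp3 cells (0.179% of all genes), Ccl11 cells (0.281%), Sost cells (0.00793%), Sncg cells (0.371%) and capillary cells (0.247%), and unadjusted p-values under 0.05 were counted beside the share of all genes. In Mmp3 cells 6 members were lower and 2 higher at that level (8.39% of all genes in either direction), in Ccl11 cells 6 lower and 0 higher (8.41%), in Sost cells 9 lower and 0 higher (8.78%) and in Sncg cells 5 lower and 1 higher (8.05%). In capillary cells 0 were lower and 1 higher (12.1%), which was Col8a1 (log2 0.85). The smooth muscle markers in fibroblast sums totalled 2373, 395 and 553 CPM in controls and 1600, 1524 and 995 CPM on the high-fat diet. Control 1 was thus highest and the other 2 controls lowest, and the part of smooth muscle RNA was not tested.

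Endothelial cells gave 0 calls among 18 members (0.14% of all 9262 genes), with 11 negative differences and 2 lower at an unadjusted p under 0.05 (6.22% of all genes lower). Col18a1 was at 111, 94.2 and 102 CPM in controls and 61.9, 65.3 and 43.6 CPM on the high-fat diet, beside 28.5 CPM in blood cells. The groups did not overlap (log2 -0.91, SE 0.19, adjusted p = 0.113), and the call was made without control 1 (adjusted p = 0.036), as was that of Col23a1 (0.0497). Within capillary cells alone Col18a1 overlapped between diets. Its mean there was 42.4 CPM for control samples against 31.4 CPM for high-fat diet samples (log2 -0.20, SE 0.35, adjusted p = 0.868 in edgeR). Lymphatic endothelial cells had Col18a1 at 202 CPM, and the part of the mix of endothelial cells in its diet difference was not tested. Over all endothelial cells Col4a1 differed by 0.09. With all samples Col23a1 (-1.25, adjusted p = 0.209), Col15a1 (-0.74), Col8a1 (0.43) and Col5a1 (0.39) did not pass and overlapped. DESeq2 called 0 endothelial members.

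Macrophages gave 0 calls among 16 members in edgeR (0.0196% of all 10208 genes), 0 at an unadjusted p under 0.05 and 0 in DESeq2. Their Col3a1 was at 638 CPM in control 1 and at 157 to 216 CPM in the other 5 samples. Control 1 was thus the highest sample by far, and the part of free RNA in it was not tested.

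Pericytes, Schwann, mesothelial, arterial and lymphatic cells had too few samples per diet with the main gate. They were tested with a gate that sets marker counts against the background of each well, which was chosen after the data were seen. By edgeR 0 members were called in pericytes (0.0526% of all genes), Schwann cells (0%), mesothelial cells (0.18%), arterial cells (0%) and lymphatic cells (0.377%). At an unadjusted p under 0.05 there were 2 of 13 members in pericytes (7.28% of all genes), 0 of 17 in Schwann cells (5.13%), 3 of 18 in mesothelial cells (8.76%), 2 of 13 in arterial cells (6.51%) and 1 of 15 in lymphatic cells (10.5%).

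Of the pathway genes around collagen, 1 passed between diets in edgeR. P4ha1, a catalytic subunit of prolyl 4-hydroxylase, was at 35.1, 19.1 and 20.1 CPM in controls and 86.2, 84.7 and 84.0 CPM on the high-fat diet in endothelial cells (log2 1.95, SE 0.21, adjusted p = 0.00390 in edgeR and 4.165e-05 in DESeq2), with no overlap. It was 1 of 21 processing genes tested there, and 0 of 4 receptors were called. P4ha1 did not pass without high-fat diet 1 (adjusted p = 0.0645), with a stricter gate (0.224) or in the first well of each sample alone (0.125). In capillary cells the log2 difference was 2.30 (adjusted p = 8.128e-04). Values on the high-fat diet also lay above all controls in smooth muscle cells (1.53, adjusted p = 0.0945), fibroblasts (0.72, 0.172) and macrophages (0.96, 0.1004), none of which passed in edgeR. Lying above all controls held for 5.87%, 8.8% and 9.83% of all genes in these classes. DESeq2 called P4ha1 in smooth muscle cells (1.54, adjusted p = 2.902e-09) and fibroblasts (0.71, 0.00587) but not in macrophages (0.98, 0.322), and edgeR with no filter on low counts called it in smooth muscle cells (0.00666), so these calls too depended on the tool or filter. DESeq2 called 0.337% of all genes higher in smooth muscle cells and 0.886% in fibroblasts. It called 1 further pathway gene, Serpinh1 in endothelial cells (0.86, adjusted p = 0.0307), where 0.361% of all genes were called higher.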

How the data were processed

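Whole-number UMI counts per gene and cell were deposited by the authors as 1 matrix per sample. The submitters' processing notes name Cell Ranger 3.0 and mm10, and how cells were called is not given in the sources used here. Barcodes showed 2 wells per sample. Cells with at least 300 genes and under 20% mitochondrial counts were kept, and Scrublet, run on each well through scanpy 1.11.5 at a doublet rate of 0.06, removed 1379 cells (2.32%) that scored above 0.25, which left 58034 cells. Gates used lists of 6 markers (for T cells 4 were in the files), and 21193 cells passed none. Cell types are thus reconstructed and may differ from the study's own.

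Counts of a class were added up within a sample that had at least 20 such cells, and the sums were tested with edgeR 4.0.16 (quasi-likelihood, robust, TMM factors, default filter on low counts) in R 4.3.3, with Benjamini-Hochberg adjustment over all genes at 0.05. In each contrast between cell types the filter took the sums of both classes, so a member could enter through the class where it was high. DESeq2 1.42.0, other size factors, filters, gates and wells, and leaving out each replicate were alternatives. The well background gate, the contrasts with macrophages and the subtraction of blood cell levels were chosen after seeing the data. The diet tests were tried on simulated data in which some genes at 20 CPM or more were changed 2-fold or 4-fold. Of the 2-fold changes, 63% were called in endothelial cells, 54% in smooth muscle cells, 86% in fibroblasts and 64% in macrophages. Of the 4-fold changes, 94% to 99% were called. A member without a call between diets may thus still differ by 2-fold or less. Chain ratios were compared with an exact sign-flip test in Python 3.11.15. Coordinates came from the GENCODE annotation of mm10 and promoters from RefSeq.

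The members and lists were chosen with earlier results of these data known. Values were given for the 10 highest members in endothelial cells, smooth muscle cells, fibroblasts and macrophages and the 3 highest elsewhere; in contrasts for up to 6 called members in each direction with the largest fold and at least 20 CPM in the higher class; between diets for called members and the 5 smallest p-values in the 4 main classes; and for Col1a1, Col1a2, Col3a1, Col4a1, Col4a2, Col6a1 to Col6a3, Col8a1, Col15a1 and Col18a1 in the main classes. Members outside this rule were named after their values were seen, among them Col6a5 in fibroblasts, the levels of Col4a3, Col4a4 and Col4a6 in smooth muscle cells, Col4a3 and Col4a4 between fibroblasts and smooth muscle cells, Col1a1 in arterial cells and the chains named between diets in the second gates.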

Additional observations from a re-analysis of the deposited data

How the results depend on the processing

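Counts of members called between diets moved as follows. DESeq2 called 7 in fibroblasts and 2 in smooth muscle cells in place of 0, and with no filter on low counts 2 were called in endothelial cells and 1 in macrophages. Leaving out 1 library gave 0 to 2 in endothelial cells (2 without control 1), 0 to 1 in smooth muscle cells (1 without control 3, with the well background gate) and 0 to 0 in fibroblasts. Shared replicate numbers did not pair the samples (correlations of same-numbered samples from -0.073 to 0.368, and in none of the 4 main classes did every sample correlate best with its own number), and with the replicate as a block 0 members were called in each of the 4 main classes and P4ha1 in endothelial cells was at 1.91 (adjusted p = 0.0523, edgeR).

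With the stricter gate, which keeps fewer cells, the members called higher were 13 for fibroblasts over smooth muscle, 13 for fibroblasts over endothelium (lower: 2) and 3 for Mmp3 over Pi16 fibroblasts (lower: 1), and the members called lower were 0 for smooth muscle against endothelium, 1 for Thbs4 and 3 for Ccl11 against Pi16 fibroblasts. Over DESeq2, median-of-ratios size factors and no filter, 1 member was called higher in mesothelial cells than in fibroblasts; DESeq2 called 1 lower in Thbs4 and 3 lower in Ccl11 fibroblasts, at least 1000 genes per cell gave 2 lower in Ccl11 fibroblasts, the looser gate 7 higher in Thbs4 fibroblasts, and the well background gate 1 lower in mesothelial cells than in macrophages. Leaving out 1 library gave 19 to 23 members higher in fibroblasts than in smooth muscle, 19 to 22 higher and 3 to 4 lower in fibroblasts than in endothelium, 2 to 5 lower in smooth muscle than in endothelium, 3 to 8 higher in pericytes than in smooth muscle, 1 to 2 higher in mesothelial cells than in fibroblasts, 3 to 6 higher in Sncg than in Sost cells, and, against Pi16 fibroblasts, 3 to 12 higher and 0 to 4 lower in Thbs4, 6 to 9 higher in Mmp3, and 4 to 10 higher and 2 to 6 lower in Ccl11 fibroblasts.

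Summed collagen with the blood cell level subtracted was 816 CPM in endothelial cells, 3492 in smooth muscle cells and 37.3 in macrophages, and 1290 CPM in endothelial cells with the stricter gate. Directions that reversed were, between diets, endothelial Col5a1 (-0.047 with the looser gate, -0.19 with the well background gate), macrophage Col16a1 (-0.062, well background gate) and macrophage Col4a6 (-0.12 and -0.52, looser and well background gates), and, between cell types with the stricter gate, Col18a1 of fibroblasts against endothelium (0.047) and Col4a1 of smooth muscle against endothelium (0.13). Of 526 values of named genes between diets, 501 kept direction and side of the threshold; of 1220 between cell types, 1130 did. The chain ratios cannot pass their test with a library left out (5 samples), so their staying on 1 side of the threshold there says nothing about stability. The cause of these moves was not tested. With the main gate, fits were not run between diets for classes with fewer than 3 samples per diet (pericytes, Schwann, mesothelial, arterial, lymphatic and Thbs4 cells among them), nor with the stricter gate for pericytes, mesothelial, arterial or Sncg cells. Free RNA limits what can be read of fibrillar chains in endothelial and blood cells.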
